A study of Cucumis sativus with 8 samples.

Results

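The tetraspanin genes described here are the cucumber genes Csa1G089490, annotated as tetraspanin3, and Csa1G287020, annotated as tetraspanin8. They make up 2 of the 17783 genes in the deposited table. They were chosen from 4 genes annotated as tetraspanins, with earlier results of these data known. Of the 4, they had the highest log2 fold changes of R5 against WT in vein. The annotation comes from the study's own lists of genes that changed in the leaf vein, so that tetraspanin genes outside those lists carry no name here, and the vein change of a listed gene is not independent evidence of its direction.

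Tetraspanins are small integral membrane proteins that assemble with one another and with partner proteins into patches of the plasma membrane and of endosomal membranes. In *Arabidopsis*, TET8 is carried on extracellular vesicles that cells release during infection, and TET3 has been found at plasmodesmata, the channels that join neighboring plant cells. Tetraspanins of *Arabidopsis* are also expressed in restricted domains of developing organs, including vascular tissue.

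RNA was sequenced from 8 libraries of the cucumber inbred line R1461, with 2 biological replicates in each of 4 groups. R5 vein and R5 fruit came from plants of R5, a single transgenic line that carries an RNAi construct against *CsIVP* (named CsIND in the sample labels), a basic helix-loop-helix transcription factor gene. WT vein and WT fruit came from plants of the same inbred line without the construct. Vein samples were the midveins of the youngest leaves that had expanded, and fruits were collected 4 d before anthesis. The plant age, the number of plants per library and the promoter of the RNAi construct are not given in the sources used here, and every direction below rests on 1 line.

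The libraries held between 18088985 and 22979345 reads on annotated genes. Levels are given in RPM, reads scaled to a library total of 1000000 reads on genes, so that 1 read was worth between 0.0435 and 0.0553 RPM, and a count of 0 allowed a level of up to 3 reads, or between 0.131 and 0.166 RPM, for counting error only. RPM is not divided by gene length, and levels are therefore compared between libraries and not between genes. *CsIVP* (Csa6G483450) had 0 reads in the R5 vein libraries and in the WT vein libraries, and in fruit it stood at 42.3 and 52.1 RPM in R5 and at 50.0 and 38.3 RPM in WT. The level of the targeted gene therefore did not tell the libraries labelled R5 from those labelled WT. The 21 mesophyll genes on a list of photosystem and light-harvesting genes summed to 2715 and 16483 RPM in R5 vein, against 32025 and 29277 RPM in WT vein. Both R5 vein libraries were below both WT vein libraries, and R5 vein replicate 1 was far below R5 vein replicate 2. The 10 xylem genes summed to 165 and 122 RPM in R5 vein, against 249 and 250 RPM in WT vein, and the 7 phloem genes summed to 144 and 132 RPM in R5 vein, against 141 and 123 RPM in WT vein. In fruit the mesophyll genes summed to 4006 and 3391 RPM in R5 and to 4858 and 4969 RPM in WT, the xylem genes to between 78.5 and 86.6 RPM and the phloem genes to between 142 and 175 RPM over the 4 libraries. None of the listed marker genes was at 0 in any library, and all of them were drawn from the study's lists of genes changed in vein. That choice favors a difference between R5 vein and WT vein. A sum is led by its most abundant genes and does not give the direction of each gene, so similar sums can hold opposite changes.

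Tetraspanin3 was all but absent from the WT vein and present in the other 3 groups. Csa1G089490 had 7.59 and 15.4 RPM in R5 vein, from 140 and 293 reads, against 0.0553 and 0 RPM in WT vein, from 1 and 0 reads. The R5 libraries of the vein were thus well above the 3-read floor, and the WT libraries of the vein were below it. In fruit, tetraspanin3 had 4.84 and 5.10 RPM in R5, against 5.87 and 3.05 RPM in WT, and the R5 values lay between the WT values. By mean level the order was R5 vein (11.5 ± 5.54 RPM, SD, n = 2), R5 fruit (4.97 ± 0.187 RPM), WT fruit (4.46 ± 2.00 RPM) and WT vein.

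Tetraspanin8 had the same order of groups, but it was expressed in the WT vein as well. Csa1G287020 had 328 and 175 RPM in R5 vein, against 25.7 and 26.0 RPM in WT vein. The lower R5 vein library was several times above both WT vein libraries, which differed little from each other. In fruit, tetraspanin8 had 221 and 88.8 RPM in R5, against 91.9 and 66.3 RPM in WT. The groups overlapped in fruit, since R5 fruit replicate 2 was below WT fruit replicate 1, and R5 fruit replicate 1 stood apart from the other 3 fruit libraries. By mean level the order was R5 vein (251 ± 108 RPM, SD, n = 2), R5 fruit (155 ± 93.1 RPM), WT fruit (79.1 ± 18.1 RPM) and WT vein (25.9 ± 0.230 RPM).

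**Figure D1:**
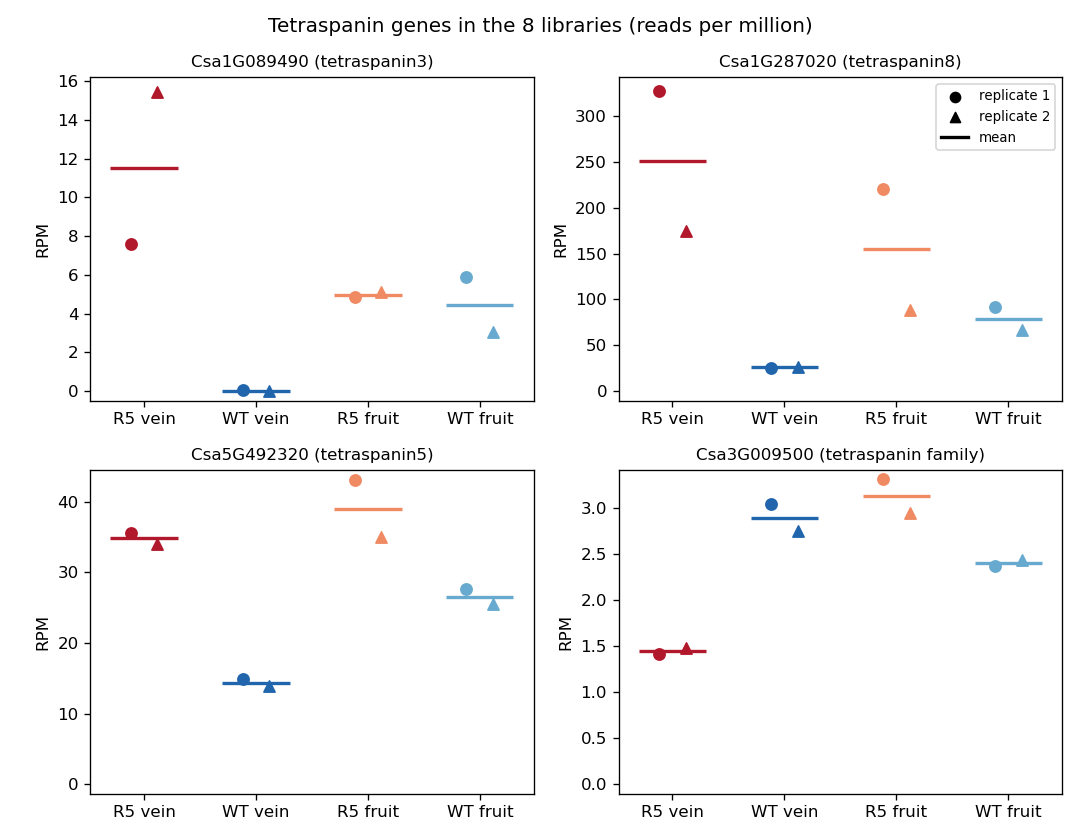
Level in RPM (vertical axis, linear, 1 panel per gene) of the 4 annotated tetraspanin genes in R5 vein, WT vein, R5 fruit and WT fruit. Circles are replicate 1, triangles are replicate 2 and bars are the mean of the 2 libraries. Tetraspanin3 and tetraspanin8 are lowest in WT vein, at 0.0553 and 0 RPM and at 25.7 and 26.0 RPM.

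The first comparison asked how the RNAi line differed from WT in the leaf vein. With limma on log2(RPM + 0.5) and Benjamini-Hochberg adjustment over all 17778 genes tested, a gene was called when its adjusted p was under 0.05 and its change was at least 2-fold. Both tetraspanin3 and tetraspanin8 rose in R5 vein, 2 of 2 members, where 14.0% of all genes tested were called up. The members were named from the study's lists of genes changed in vein, so their choice favored this count. Tetraspanin3 had a log2 fold change of 4.43 ± 0.40 (SE, 95% interval 3.48 to 5.38, limma adjusted p = 0.000682), which ranked 155 from the highest of all genes tested. With a single read in WT vein, the value depended on the pseudocount. It was 6.46 with a pseudocount of 0.1 and 3.53 with a pseudocount of 1, and both were called. Counted as reads, tetraspanin3 had 433 reads in R5 vein against 1 read in WT vein, a ratio of 449 per read on genes, with an exact 95% counting interval of 80.2 to 17789. The interval covers counting error only.

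Tetraspanin8 had a log2 fold change of 3.19 ± 0.46 (SE, 95% interval 2.08 to 4.29, limma adjusted p = 0.00327), which ranked 414 from the highest. In reads it had 9361 in R5 vein against 1005 in WT vein, a ratio of 9.67 (exact 95% counting interval 9.06 to 10.3). Both calls were kept when any 1 of the 8 libraries was left out, with log2 fold changes of 3.94 to 4.92 for tetraspanin3 and of 2.73 to 3.64 for tetraspanin8. Over all genes tested in vein, the log2 fold changes had a median of 0.20 as RPM and of -0.04 with TMM scaling factors. With TMM factors, tetraspanin3 stood at 4.44 and tetraspanin8 at 2.93. In bulk tissue, more cells of a type that expresses a gene cannot be told apart from more RNA of that gene per cell. The mesophyll and xylem marker sums given above also differed between R5 vein and WT vein. The marker genes came from lists of genes changed in vein, so the choice favored such a difference. Any part of tissue make-up in the changes of tetraspanin3 and tetraspanin8 was not tested.

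The 2 R5 vein replicates went opposite ways for the 2 genes. Tetraspanin3 was higher in replicate 2, by 0.98 on the log2 scale, and tetraspanin8 was higher in replicate 1, by 0.90. Of the 2494 genes called up in R5 vein, 1903 (76.3%) were higher in R5 replicate 1, tetraspanin8 among them, and 591 were higher in R5 replicate 2, tetraspanin3 among them. Gaps of this size were not rare in R5 vein, where 15.6% of genes had a larger gap than tetraspanin3 and 18.1% a larger gap than tetraspanin8. The replicate with less mesophyll marker RNA, replicate 1, thus had more tetraspanin8 and less tetraspanin3 than replicate 2. With R5 vein replicate 1 left out, the log2 fold changes were 4.92 for tetraspanin3 and 2.73 for tetraspanin8, and with replicate 2 left out they were 3.94 and 3.64.

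A level near 0 in WT vein was uncommon among the genes that rose. Of the 2494 genes called up in R5 vein, 21 (0.842%) had at most 1 read over the WT vein libraries together. Of those 21, only tetraspanin3 and Csa1G560730, a gene singled out after its values were seen, had at least 100 reads over the WT fruit libraries. Csa1G560730 had 9.11 and 0.790 RPM in R5 vein, against 0.0553 and 0 RPM in WT vein, and 5.38 and 3.13 RPM in R5 fruit, against 4.51 and 4.13 RPM in WT fruit. Its level in R5 vein rested mainly on replicate 1, whereas tetraspanin3 was well above the floor in both replicates. The share of such genes among all genes tested was not computed, and their count depends on the limits chosen. Tetraspanin3, with 1 read over the WT vein libraries and 199 over the WT fruit libraries, stood at the first limit. Csa2G178720, described below, had 0.0553 and 0.145 RPM in WT vein and 3.78 and 2.13 RPM in WT fruit. It had a like pattern and was left out by the limit of 1 read in WT vein.

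The second comparison asked the same of the fruit. Neither gene was called, 0 of 2 members, where 0.422% of all genes tested were called up. Tetraspanin3 had a log2 fold change of 0.20 (95% interval -0.74 to 1.15, limma adjusted p = 1.00), and tetraspanin8 had one of 0.84 (95% interval -0.27 to 1.95, limma adjusted p = 0.923). At an unadjusted limma p under 0.05 the count was also 0 of 2, and it was 0 of 2 with edgeR's quasi-likelihood test, edgeR's exact test and DESeq2 on the recovered reads. The intervals still allowed a change of about 2-fold for tetraspanin3 and more for tetraspanin8. In reads, tetraspanin3 had 200 in R5 fruit against 199 in WT fruit, a ratio of 1.13 (exact 95% counting interval 0.920 to 1.38), and tetraspanin8 had 5988 against 3541, a ratio of 1.89 (1.82 to 1.97). These intervals hold counting error and no replicate error. Between the R5 fruit replicates, tetraspanin8 differed by 1.31 on the log2 scale, and only 1.21% of genes had a larger gap there. Between the WT fruit replicates, tetraspanin3 differed by 0.85, and 2.53% of genes had a larger gap. Without WT fruit replicate 2, the fruit log2 fold change of tetraspanin3 was -0.22, the opposite sign. Without R5 fruit replicate 1, that of tetraspanin8 was 0.19.

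The change of each gene in vein was then compared with its change in fruit, in 1 fit. The difference was called for 1 of the 2 members, where 11.4% of all genes tested were called in either direction at an adjusted p under 0.05. For tetraspanin3 the change in vein exceeded that in fruit by 4.23 ± 0.56 on the log2 scale (SE, 95% interval 2.89 to 5.57, limma adjusted p = 0.0139). For tetraspanin8 it exceeded it by 2.35 ± 0.66 (95% interval 0.78 to 3.91, limma adjusted p = 0.0643), which missed the threshold. The call for tetraspanin3 was lost without any 1 of the 6 libraries of WT vein, R5 fruit or WT fruit, at limma adjusted p values of 0.0545 to 0.0893, while the difference itself stayed between 3.80 and 4.65. For tetraspanin8 the difference passed with DESeq2 (2.02, adjusted p = 0.0197), with limma without R5 vein replicate 1 (1.90, adjusted p = 0.0422) and with limma without R5 vein replicate 2 (2.80, adjusted p = 0.00668). Over all the alternatives the adjusted p ran from 5.92e-06 to 0.0893 for tetraspanin3 and from 0.00668 to 0.211 for tetraspanin8.

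**Figure D2:**
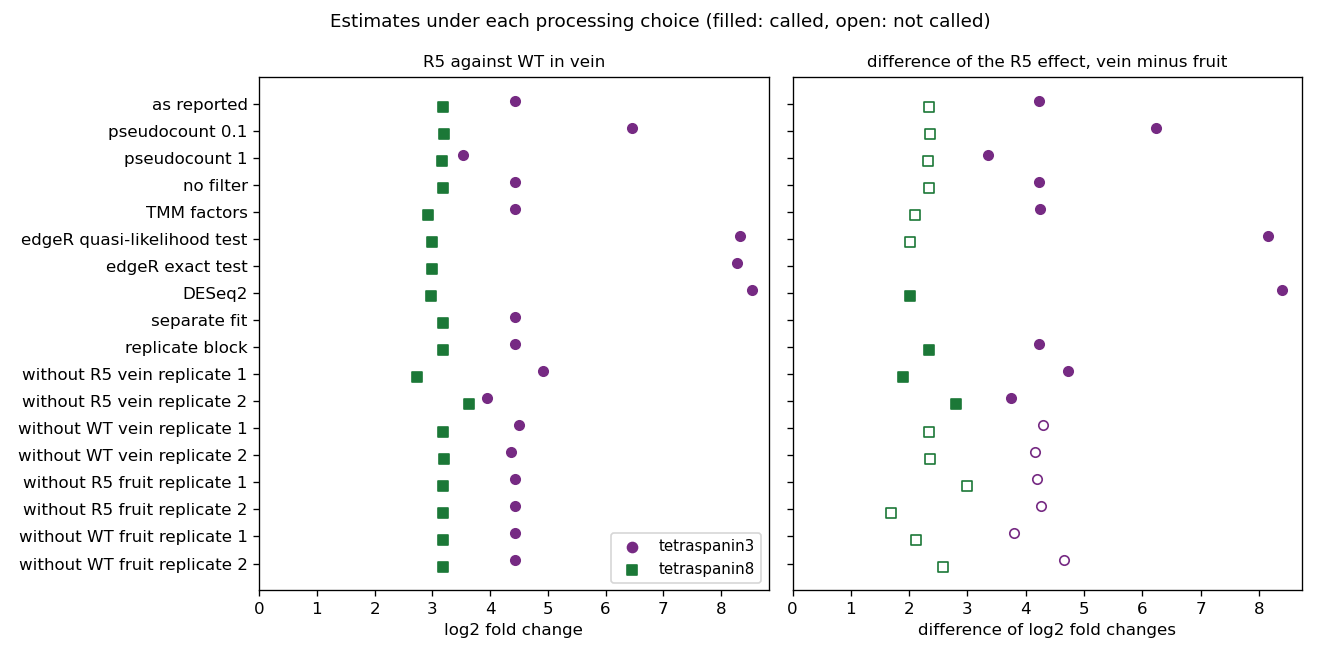
Estimates for tetraspanin3 (circles) and tetraspanin8 (squares) under each processing choice, for R5 against WT in vein (left, log2 fold change) and for the vein change minus the fruit change (right, log2 difference). Filled symbols were called and open symbols were not, and the vein changes were called under every choice shown, whereas the call of the tissue difference depended on the choice. The left-hand values for tetraspanin3 ran from 3.53 with a pseudocount of 1 to 8.54 with DESeq2.

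The 2 tissues were also set against each other within each genotype. In WT, both genes were lower in vein than in fruit, 2 of 2 members, where 22.7% of all genes tested were called lower in vein. Both members were named from lists of genes changed in vein and rose in R5 vein, which favors low values in WT vein. Tetraspanin3 had a log2 fold change of -3.17 ± 0.40 (SE, limma adjusted p = 0.00125) and tetraspanin8 one of -1.57 ± 0.46 (limma adjusted p = 0.0255). That of tetraspanin3 was -5.12 with a pseudocount of 0.1 and -2.36 with a pseudocount of 1, and both were called. The call for tetraspanin8 was lost with TMM factors (-1.14, limma adjusted p = 0.0856) and under the edgeR quasi-likelihood model (-1.17, adjusted p = 0.0846). It was also lost without any 1 of the 4 WT libraries, where the log2 fold change lay between -1.81 and -1.34. In R5, neither gene was called between vein and fruit, where 22.5% of all genes tested were called in either direction. Tetraspanin3 had 7.59 and 15.4 RPM in R5 vein, against 4.84 and 5.10 RPM in R5 fruit, and its log2 fold change was 1.05 (95% interval 0.11 to 2.00, limma adjusted p = 0.0740). The groups did not overlap, and the call was made with edgeR's exact test (1.43, adjusted p = 0.0275) and with DESeq2 (1.48, adjusted p = 0.0173), as well as with limma without R5 vein replicate 1 (1.54, adjusted p = 0.00674). Tetraspanin8 had 328 and 175 RPM in R5 vein, against 221 and 88.8 RPM in R5 fruit, groups that overlapped, with a log2 fold change of 0.77 (95% interval -0.33 to 1.88, limma adjusted p = 0.220). The comparisons within a genotype use the same libraries as those between genotypes, so that the 4 sets of values are not independent of each other.

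**Figure D3:**
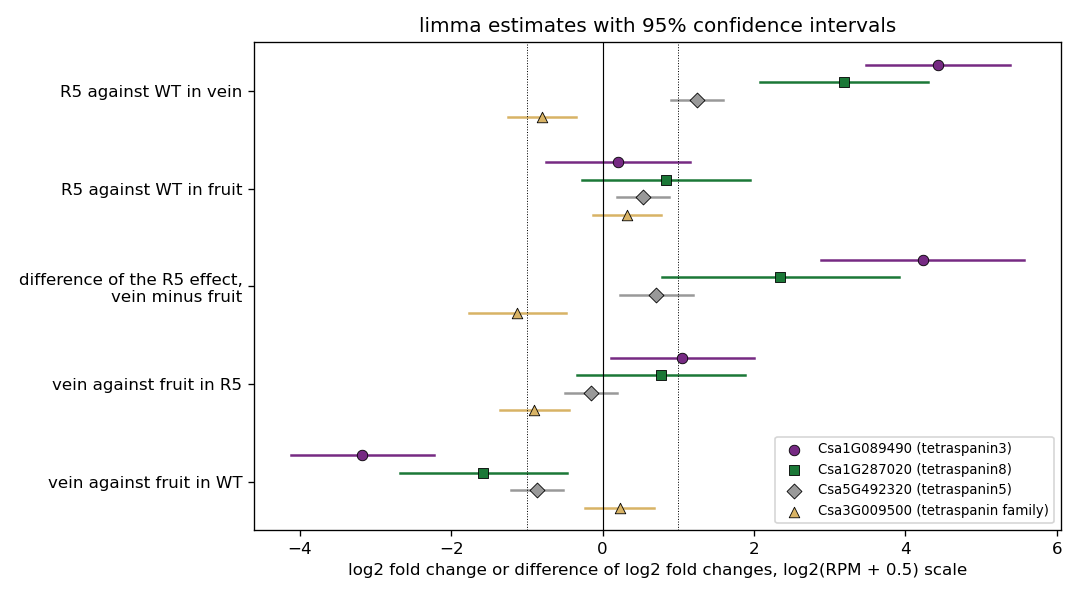
Log2 fold changes, or differences of log2 fold changes, from limma on log2(RPM + 0.5) (horizontal axis) for the 4 annotated tetraspanin genes in 5 comparisons (vertical axis), with 95% confidence intervals as lines. Dotted lines mark a 2-fold change. In vein, tetraspanin3 (4.43) and tetraspanin8 (3.19) lie farthest to the right, and in fruit the intervals of both include 0.

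The study's lists annotate another 2 genes as tetraspanins, and the 2 differed from each other in vein. Csa5G492320, annotated as tetraspanin5, had 35.6 and 34.1 RPM in R5 vein, against 14.9 and 13.8 RPM in WT vein. In *Arabidopsis*, TET5 acts together with TET6 to limit organ growth. It rose in R5 vein, with a log2 fold change of 1.25 ± 0.14 (SE, limma adjusted p = 0.00155), a smaller change than that of either member, with replicates that lay close together. With TMM factors its log2 fold change was 1.00 and with DESeq2 0.99, both just under 2-fold, so that the call was lost while the adjusted p stayed under 0.05. In fruit, Csa5G492320 had 43.0 and 35.0 RPM in R5, against 27.6 and 25.5 RPM in WT. The groups did not overlap, yet the log2 fold change of 0.54 was not called (limma adjusted p = 0.334). The difference of its vein and fruit changes was 0.71 (limma adjusted p = 0.0675).

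Csa3G009500, annotated only as a tetraspanin family protein, was the lowest of the 4 in R5 vein relative to WT vein. It had 1.41 and 1.47 RPM in R5 vein, from 26 and 28 reads, against 3.04 and 2.75 RPM in WT vein, from 55 and 57 reads. The groups did not overlap, and the log2 fold change was -0.80 ± 0.19 (SE, limma adjusted p = 0.0174), under 2-fold and so not called. With TMM factors it was -1.03 and it was called, as it was with edgeR's quasi-likelihood test at -1.26, edgeR's exact test at -1.26 and DESeq2 at -1.29. In fruit, Csa3G009500 had 3.32 and 2.94 RPM in R5, against 2.37 and 2.44 RPM in WT, which gave 0.32 on the log2 scale (limma adjusted p = 0.960). Its vein change was below its fruit change by a difference of -1.13 ± 0.27 (SE, limma adjusted p = 0.0455), and this call was lost without any 1 of the 6 libraries of WT vein, R5 fruit or WT fruit (limma adjusted p between 0.0968 and 0.181). Across the 4 annotated tetraspanins, 3 were called up in R5 vein with limma, beside 14.0% of all genes tested, though their names come from the study's lists of genes changed in vein. None was called in fruit with limma, edgeR or DESeq2, and at an unadjusted limma p under 0.05 the count in fruit was 1 of 4, tetraspanin5, beside 6.81% of all genes.

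All 4 tetraspanins stand on the study's list of developmental genes, whose 126 genes were picked from the vein comparison. By log2 fold change in vein, tetraspanin3 ranked 8, tetraspanin8 ranked 21, tetraspanin5 ranked 68 and Csa3G009500 ranked 84 of these 126, from the highest. On that list 75 genes were called up in R5 vein, beside 14.0% of all genes tested, a count that the choice of the list shaped.

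The genes with the most similar pattern to each member were found over the 8 libraries, by the root mean square difference of log2(RPM + 0.5) after centering each gene. Their likeness to the member in any group or replicate is therefore shaped by the choice and is given as a description. Nearest to tetraspanin3 was Csa2G178720, a RING/U-box protein of the ubiquitin ligase type, at a distance of 0.32. It had 7.43 and 9.53 RPM in R5 vein, against 0.0553 and 0.145 RPM in WT vein, and 4.30 and 4.46 RPM in R5 fruit, against 3.78 and 2.13 RPM in WT fruit. It was thus the gene of this set that, like tetraspanin3, was at or under the floor of 3 reads in the WT vein. The next were Csa7G379080, an E1-E2 type ATPase (distance 0.40), Csa2G401340, annotated as phosphatase 2C5 (0.53), Csa4G618460, which carries no annotation in the tables used here (0.55), and Csa7G391240, an alpha/beta-hydrolase (0.57). Csa7G379080 was the most abundant of the 5 in R5 vein, with 110 and 117 RPM, against 4.92 and 5.35 RPM in WT vein. In fruit the 5 genes had log2 fold changes of 0.27 to 0.84, and none was called.

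Tetraspanin8 had closer neighbors. The nearest was Csa4G608130, an aspartyl protease, at a distance of 0.21, followed by Csa3G845500, annotated as respiratory burst oxidase homologue D (0.23), Csa5G471600, an EXS family protein (0.23), Csa7G071520, a protein phosphatase 2C (0.23), and Csa3G076020, a glyoxalase I homolog (0.25). In *Arabidopsis*, RBOHD is the NADPH oxidase that makes most of the extracellular superoxide of the immune response. Csa3G845500 had 288 and 129 RPM in R5 vein, against 21.8 and 23.3 RPM in WT vein, and 162 and 109 RPM in R5 fruit, against 85.5 and 69.1 RPM in WT fruit. Like tetraspanin8, each of these 5 genes was higher in replicate 1 than in replicate 2 in R5 vein and in R5 fruit, an order that their choice by pattern favors. Their fruit log2 fold changes lay between 0.78 and 1.38 without a call. Tetraspanin8 itself was only position 77 in the order of likeness to tetraspanin3, and tetraspanin3 was position 1118 in the order of likeness to tetraspanin8, at a distance of 0.84 (Pearson r = 0.88 over 8 libraries that share 4 groups, given as a description).

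**Figure D4:**
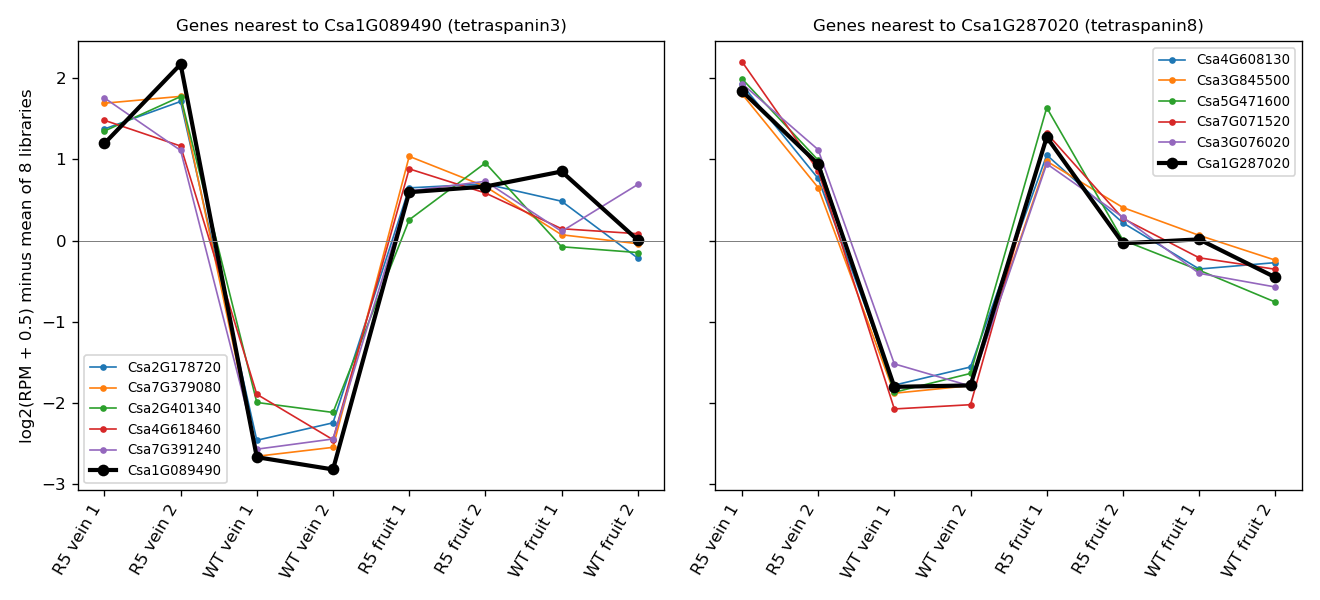
Centered log2(RPM + 0.5) in the 8 libraries (horizontal axis) of tetraspanin3 (left, black) and tetraspanin8 (right, black), each with the 5 genes nearest to it (colors). Lines join libraries to show a gene's pattern and carry no order. Tetraspanin3 is higher in R5 vein replicate 2 and tetraspanin8 in R5 vein replicate 1.

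Tetraspanins work together with the machinery that moves membrane, so 36 genes of secretion, endosomes and plasmodesmata were read beside them. The list was compiled from the study's sheets of genes changed in vein, 1 of which is held only in part, so the vein counts are a description and no share of higher against lower genes is read from them. Of the 36 genes, 30 came from the study's sheet of genes raised in vein and 6 from its sheet of genes lowered there, so that the choice set the direction of the vein calls below. In vein 30 of the 36 were called up, beside 14.0% of all genes tested, and 2 were called down, beside 5.14%, with a median log2 fold change of 2.19, beside 0.20 over all genes. The study's sheets did not use the fruit libraries, but the list was compiled here with earlier results of both tissues known. The fruit counts are therefore also a description. They stand beside shares of all genes, and the shares among all genes raised in vein were not computed. In fruit 3 of the 36 were called up, beside 0.422% of all genes tested, and none down, beside 0.0506%. In fruit 29 of the 36 were higher in R5, beside 48.2% of all genes, and the median log2 fold change was 0.38, beside -0.01 over all genes. At an unadjusted limma p under 0.05 the fruit count was 14 of 36, beside 6.81% of all genes tested. The calls numbered 3 with edgeR's quasi-likelihood test, 5 with edgeR's exact test and 4 with DESeq2. Over all 17778 genes tested, these tools called 65, 363 and 362 genes in fruit, in that order. The 3 fruit calls of limma became 0 without any 1 of the 4 fruit libraries, 1 without either WT vein library and 5 without either R5 vein library.

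Multivesicular bodies sort cargo into the vesicles that can later be released from the cell. A clathrin light chain gene was also counted in the multivesicular body and endosome group. The group held all 3 fruit calls, among its 11 genes, beside 0.422% of all genes called up in fruit. In vein 10 of the 11 were called up, beside 14.0% of all genes, and 10 came from the sheet of raised genes. Csa6G032470, one of several genes with a Vps4 regulator annotation, had 237 and 230 RPM in R5 vein, against 5.03 and 5.54 RPM in WT vein, and 76.0 and 44.0 RPM in R5 fruit, against 2.55 and 0.653 RPM in WT fruit. On the log2 scale it changed by 5.34 in vein and by 4.96 in fruit (limma adjusted p = 0.000578 and 0.0193). Csa6G031970, with the same annotation, had log2 fold changes of 4.66 in vein and 2.87 in fruit (limma adjusted p = 0.000224 and 0.0193). Csa5G608410, with a BRO1-like domain that binds the endosomal sorting machinery, had log2 fold changes of 1.91 and 1.21 (limma adjusted p = 0.000397 and 0.0275). These 3 genes were called in fruit, where neither tetraspanin3 nor tetraspanin8 was called. A difference in fruit between these genes and the tetraspanins was not tested. The lowest of the group in vein was Csa6G507450, another gene with the Vps4 regulator annotation, at -0.84 (limma adjusted p = 0.0405, under 2-fold).

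The exocyst and secretory syntaxin genes act in the tethering and fusion of vesicles, and a secretory carrier gene was counted with them. In vein 9 of the 10 were called up, beside 14.0% of all genes, and 9 came from the sheet of raised genes. None of the 10 was called in fruit with limma, where 4 of 10 passed 0.05 before adjustment, beside 6.81% of all genes. The exact test of edgeR called 2 and DESeq2 called 1, beside 363 and 362 of all 17778 genes tested. Csa1G039200, an Exo70E2 homolog, had 19.4 and 13.0 RPM in R5 vein, against 0.498 and 0.482 RPM in WT vein, and changed by 4.05 on the log2 scale (limma adjusted p = 0.000487). In *Arabidopsis*, Exo70E2 marks a compartment of unconventional secretion. Csa5G430000, an Exo70C2 homolog, was the lowest at -0.83 (limma adjusted p = 0.0562). Of the genes annotated as Rab GTPases, switches of vesicle transport, 4 of 5 were called up in vein, beside 14.0% of all genes. In the same group 1 was called down, beside 5.14%, and the numbers equal those on the sheets of raised and lowered genes. Csa6G500400 (RAB GTPase homolog H1E) was the highest at 2.80 and Csa1G003540 (RAB GTPase homolog E1B) the lowest at -1.52 (limma adjusted p = 0.00202 and 0.0388). The *Arabidopsis* gene nearest to Csa1G003540 encodes a chloroplast elongation factor, so that this gene, the 1 called down, belongs to the group by its annotation only. Csa1G003540 had 466 and 1341 RPM in R5 vein, against 2408 and 2120 RPM in WT vein, an order of libraries like that of the mesophyll marker sum.

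The 6 annexin and remorin genes code for proteins that attach to the inner face of the plasma membrane. All 6 came from the sheet of raised genes, and all 6 were called up in vein, beside 14.0% of all genes. None was called in fruit with limma, edgeR or DESeq2, and 2 of the 6 had an unadjusted limma p under 0.05, beside 6.81% of all genes. The highest in vein was the remorin Csa6G524660 at 3.0 and the lowest the remorin Csa1G038990 at 1.39 (limma adjusted p = 0.000274 and 0.0297). The plasmodesmata group had 1 gene from the sheet of raised genes and 3 from that of lowered genes. Csa6G366460, a callose-binding protein, had 40.3 and 49.5 RPM in R5 vein, against 13.8 and 14.6 RPM in WT vein, and a log2 fold change of 1.62 (limma adjusted p = 0.00060). Csa1G013210, annotated as the same callose-binding protein 3, had 84.0 and 86.5 RPM in R5 vein, against 218 and 216 RPM in WT vein, and fell by 1.34 on the log2 scale (limma adjusted p = 0.000631).

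**Figure D5:**
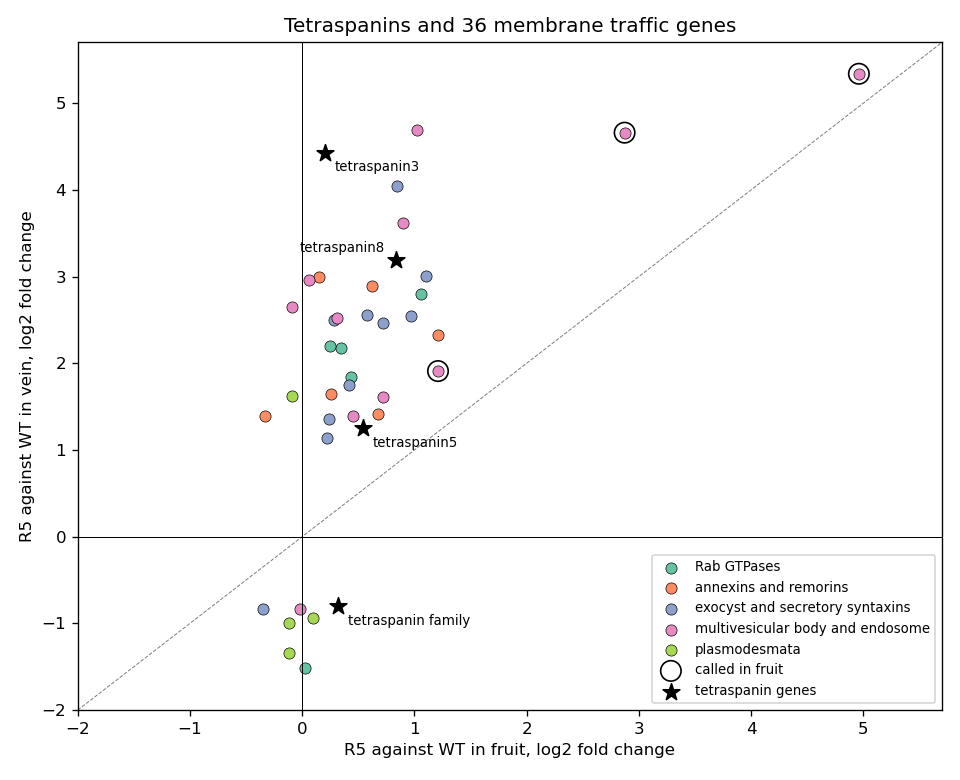
Log2 fold change of R5 against WT in vein (vertical axis) and in fruit (horizontal axis) for the 4 annotated tetraspanins (stars) and 36 membrane traffic genes (circles, colored by role), with the 3 genes called in fruit ringed. The dashed line marks equal change in both tissues. Tetraspanin3 lies at 4.43 in vein and 0.20 in fruit, and tetraspanin8 at 3.19 and 0.84.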

How the data were processed

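The libraries were directional. The authors aligned the reads with TopHat to version 2i of the cucumber genome, obtained gene counts from HTSeq-count and deposited 1 table of RPM values, scaled to 1000000 reads on genes, for 17783 genes in 8 libraries. Tool versions are not given in the sources used here. Each deposited RPM value was a whole multiple of the value of 1 read in its library (100% of values within 0.05 of a read), so that reads were recovered for the count tests. A gene was tested where 2 or more libraries reached 1 RPM (17778 genes). The main test was limma 3.58.1 (R 4.3.3) on log2(RPM + 0.5), with 1 mean for each of the 4 groups, trended empirical Bayes (4 residual and 2.69 prior degrees of freedom) and two-sided Benjamini-Hochberg adjusted p values. With 2 libraries per group an exact permutation test of 1 gene cannot go below p = 0.333, and none was run. The alternatives were pseudocounts of 0.1 and 1, no filter, TMM factors, edgeR 4.0.16 and DESeq2 1.42.0 on the recovered reads, fits per tissue or genotype, a replicate block, and leaving out each library. The scripts were tested on simulated data.

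The genes named were tetraspanin3 and tetraspanin8, the other annotated tetraspanins, *CsIVP*, the 5 genes of nearest pattern for each member, and, for each role on the membrane traffic list, the highest and lowest in vein and those called in fruit. Members and lists were chosen with earlier results of these data known. Names came from the study's annotated sheets. The 23999 reference genes available use other identifiers and 0 matched, so no sequences or coordinates are given. Replicate numbers were not used as pairs in the main fit.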

Additional observations from a re-analysis of the deposited data

Results flagged for a closer look

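For 2 of the 4 annotated tetraspanins the change in vein differed from the change in fruit, by the limma test of the difference itself, which called 11.4% of all genes tested. For tetraspanin3 (Csa1G089490) the difference was 4.23 on the log2 scale (limma adjusted p = 0.0139), with changes of 4.43 in vein and 0.20 in fruit. Its size depended on the pseudocount, at 6.23 with 0.1 and 3.35 with 1. For Csa3G009500 the difference was -1.13 (limma adjusted p = 0.0455), with changes of -0.80 in vein and 0.32 in fruit, from 26 and 28 reads in R5 vein and 55 and 57 reads in WT vein. Both calls were lost without any 1 of the 6 libraries of WT vein, R5 fruit or WT fruit, at limma adjusted p values of 0.0545 to 0.0893 for tetraspanin3 and 0.0968 to 0.181 for Csa3G009500. The vein changes of the 2 genes had opposite signs. With 2 libraries per group, no test for a single library far from the others was run.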

How the results depend on the processing

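The vein changes of tetraspanin3 and tetraspanin8 and the WT tissue difference of tetraspanin3 were called under all alternatives run, and tetraspanin8 in fruit was not called under any. Leaving out 1 library gave ranges of -0.22 to 0.63 for tetraspanin3 in fruit (negative only without WT fruit replicate 2), 3.74 to 4.72 for its tissue difference, 0.57 to 1.54 for R5 vein against R5 fruit, 1.69 to 3.0 for the tissue difference of tetraspanin8 and -1.81 to -1.34 for tetraspanin8 in WT vein against WT fruit. In these fits the lone library of a group was assumed to vary like the other groups. Tetraspanin3 in R5 vein against R5 fruit was called by edgeR's exact test (1.43) and DESeq2 (1.48). The tissue difference of tetraspanin8 passed with DESeq2 (2.02), and its WT tissue difference was lost with TMM factors (-1.14) and edgeR's quasi-likelihood test (-1.17). The cause was not tested.

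In vein 3407 genes were called, 2163 in a separate fit and 2109 to 5038 with 1 library left out, the lowest without WT vein replicate 1. In fruit 84 were called, 218 in a separate fit, 363 by edgeR's exact test, 362 by DESeq2, and 0 to 357 with 1 library left out (0 or 1 without a fruit library, 15 without a WT vein library, 356 or 357 without an R5 vein library). The membrane traffic genes called in fruit numbered 3, and 5 by edgeR's exact test, with 0 to 5 when 1 library was left out. The replicate numbers share no stated batch, and with a replicate block the tissue difference of tetraspanin8 (2.35) passed at adjusted p = 0.0406, the call for that of Csa3G009500 was lost (adjusted p = 0.0760), and 44 genes were called in fruit, with 2 of the membrane traffic genes among them. With the vein numbers crossed in that block, chosen after seeing that the replicate differences of R5 and WT vein correlated at -0.11, 21 genes were called in fruit. The separate fits and edgeR's exact test give no tissue difference.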
